A study of Mus musculus with 7 samples.

Results

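Ephrins and Eph receptors were followed in the ovaries of control mice (CNTR) and of third-generation PCOS-like mice (PAMH F3), for 10 genes: the ligand genes Efnb1, Efnb2, Efnb3, Efna1 and Efna5 and the receptor genes Ephb2, Ephb3, Ephb4, Epha4 and Epha7. These are 10 of the 55487 Ensembl genes with counts, and each symbol was matched to 1 identifier in the GENCODE M21 annotation of mm10. The 10 genes were picked with the difference between PAMH F3 and CNTR already known. Their values in that contrast are therefore given as a description, and no test of them is used as support. All mice were C57BL/6J females, and 1 library of poly(A) RNA was made from the ovaries of each mouse at diestrus on postnatal day 60. The 3 CNTR mice were the F1 offspring of dams that received PBS. The 4 PAMH F3 mice descended, through PAMH F1 and F2 parents on both sides, from F0 dams that received human AMH at 0.12 mg/kg per day, both kinds of injection running from E16.5 to E18.5 of gestation. The labels give the injections as subcutaneous and the methods as intraperitoneal. Neither the F2 nor the F3 lineage was injected again. Since CNTR mice were of the first generation after injection and PAMH F3 mice of the third, generation and ancestral AMH cannot be told apart.

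Ephrins are ligands that stay attached to the cell that makes them, so that they signal only between touching cells. Ephrins of class A are held in the membrane by a lipid anchor and mainly bind EphA receptors, whereas ephrins of class B cross the membrane and mainly bind EphB receptors, with EphA4 binding both classes. The receptors are tyrosine kinases that signal forward into their own cell, and ephrins signal in reverse into theirs. The family is known for guiding axons, for keeping cell groups apart and for the meeting of arteries (ephrin-B2) and veins (EphB4), and ephrin-A5 is known to be needed for a full ovulatory response in mice.

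The study asked about DNA methylation in these ovaries, which acts on CG dinucleotides. Promoter windows of 250 bases before to 50 bases after the start were therefore read from RefSeq (GRCm38.p6) for the members. A window was found for 9 of the 10 members, and Efnb3 is named only. The windows of Efnb1 (chrX:99135811-99136110, plus strand) and Efna5 (chr17:62881268-62881567, minus strand) are shown because these were the members whose libraries did not overlap between the groups. Each CG is in capitals.
Efnb1: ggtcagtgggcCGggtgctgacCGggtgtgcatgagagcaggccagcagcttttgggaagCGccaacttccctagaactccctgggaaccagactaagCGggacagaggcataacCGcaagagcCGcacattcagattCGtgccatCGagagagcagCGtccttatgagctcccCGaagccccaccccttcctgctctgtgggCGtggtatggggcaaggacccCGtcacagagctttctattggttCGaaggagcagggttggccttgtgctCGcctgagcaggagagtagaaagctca
Efna5: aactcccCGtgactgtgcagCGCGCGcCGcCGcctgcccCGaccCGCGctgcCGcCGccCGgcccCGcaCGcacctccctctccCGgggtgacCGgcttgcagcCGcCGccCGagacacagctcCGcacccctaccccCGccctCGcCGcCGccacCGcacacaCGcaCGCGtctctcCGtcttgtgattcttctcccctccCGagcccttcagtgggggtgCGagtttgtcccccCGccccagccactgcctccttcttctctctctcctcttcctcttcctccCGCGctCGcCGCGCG
The Efnb1 window held 14 CG and the Efna5 window 38. The RefSeq start of Efnb1 had an offset of -69 bases from its GENCODE start, so that its window ended before the GENCODE gene. At least as many CG as in Efnb1 were found in 36.3% of the 32851 RefSeq windows, and at least as many as in Efna5 in 4.95%. Over the 11 member windows (Efna1 and Epha7 have a pair of starts each) the CG number ran from 14 to 38 with a median of 23, against a median of 7 over all windows. The letters GGGCGG, searched on both strands, were in 9 of the 11 member windows and in 35.7% of all windows, and were not found in the windows of Efnb1 and Ephb2. In the windows of the other ephrins and Eph receptors the CG number ran from 10 (Epha2) to 56 (Epha8). Most of these windows also held GGGCGG, and those of Efna4, Epha3 and Ephb1 did not. Counts of letters say nothing of whether a site was methylated, and methylation was not analysed here.

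The total of gene counts lay between 32158174 and 35485021 in the libraries. HTSeq lines that name no gene took from 45.8% to 47.5% of all counted alignments, most of them not unique. CNTR replicate 2 stood apart from the other libraries in base composition. Its counts were higher by 0.31 on the log2 scale for each 10% of GC in the transcripts, whereas this slope lay between -0.13 and 0.05 in the other 6 libraries. Defining markers of granulosa, luteal, stromal, endothelial, smooth muscle and oocyte cells were above 0 in the libraries, and so were 4 of the 5 theca markers, whose summed level ran from 6560 to 8792 CPM in CNTR and from 6017 to 7831 CPM in PAMH F3. Cyp11a1 made up most of this theca sum (4590.5 of a CNTR mean of 7640 CPM), and Cyp17a1 had a CNTR mean of 258 CPM. The fifth theca marker, Insl3, was at or near 0 (highest library 0.15 CPM). Markers of oviduct epithelium, a neighboring tissue, were also present. Their summed level ran from 3137 to 5586 CPM in CNTR and from 2802 to 6627 CPM in PAMH F3. CPM are counts scaled to the same library size, with edgeR's TMM factors. In whole ovary, fewer cells of a type and less RNA per cell cannot be told apart.

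Efnb1 was the highest of the family in CNTR ovaries when levels were compared per kilobase of exon, followed by Ephb4, Ephb6 and Efna1. In CNTR, Efnb1 was at 22.0 ± 5.05 CPM per kilobase (SD, n = 3), Ephb4 at 16.3 ± 1.99 and Efna1 at 11.2 ± 0.95. Efnb2 followed at 6.49 ± 1.92 CPM per kilobase (SD, n = 3). Efna5 (4.12 ± 0.64), Efnb3 (3.54 ± 0.62), Epha4 (2.35 ± 0.76), Ephb2 (1.72 ± 0.17), Ephb3 (1.66 ± 0.27) and Epha7 (0.71 ± 0.11) were lower still. In the order of all 22 family genes, each gene from Efna5 down to Epha7 overlapped the next. Among the members alone, Ephb3 and Epha7 did not overlap in CNTR. Of the 21 pairs of neighbors in the order of all 22 family genes, 16 overlapped in their CNTR libraries. The highest 2 of the 5 breaks lay below Efna1 and below Efna4, so that Efnb1, Ephb4, Ephb6 and Efna1 formed 1 group of overlapping neighbors and Efnb2 and Efna4 the next. In PAMH F3 the order of the highest pair was turned, with Ephb4 at 15.01 ± 0.82 and Efnb1 at 12.9 ± 2.04 CPM per kilobase (SD, n = 4), and the libraries of these genes overlapped in both groups.

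**Figure D1:**
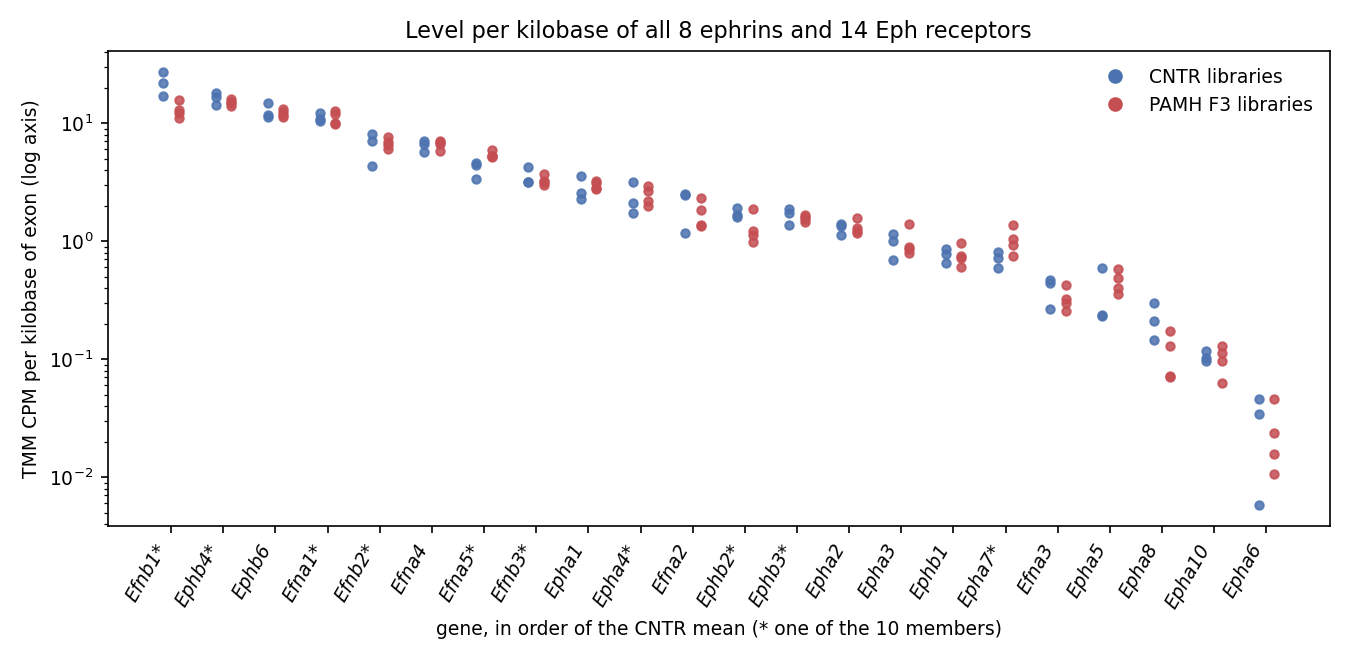
Level of all 8 ephrins and 14 Eph receptors in CPM per kilobase of exon on a log axis, with 1 point per library (blue, 3 CNTR; red, 4 PAMH F3) and genes in order of the CNTR mean; an asterisk marks the 10 members. Efnb1 is first, with CNTR libraries from 16.9 to 27.0, and Epha6 is last.

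Among the ligands of class B, Efnb1 was lower in PAMH F3, while the groups overlapped in Efnb2 and Efnb3. Efnb1 (ENSMUSG00000031217, chrX:99136130-99148991, plus strand) encodes ephrin-B1. Its CNTR libraries were at 58.2, 93.1 and 76.1 CPM and its PAMH F3 libraries at 54.4, 41.8, 37.8 and 44.3 CPM. Each PAMH F3 library was below each CNTR library, although CNTR replicate 1 and PAMH F3 replicate 1 were close to each other. Mean levels were 75.8 ± 17.4 CPM (SD, n = 3) for CNTR and 44.6 ± 7.05 CPM (SD, n = 4) for PAMH F3, a ratio of 0.588. The log2 fold change (PAMH F3 minus CNTR) from edgeR was -0.65 (standard error 0.16) with surrogate variables, which are covariates estimated from the counts, and -0.76 (standard error 0.17) without them. Leaving out CNTR replicate 1 moved it to -0.93, and leaving out CNTR replicate 2, where Efnb1 was highest, moved it to -0.55. A correction for GC content and length in place of surrogate variables gave -0.65. Summed markers of smooth muscle and pericytes ran from 1643 to 2278 CPM in CNTR and from 1288 to 1980 CPM in PAMH F3, and those of stroma from 1995 to 2353 CPM and from 1613 to 2124 CPM, with 0 of the 14 markers at 0 in all libraries. Their part in the lower Efnb1 level was not tested.

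Efnb2 (ENSMUSG00000001300, chr8:8617434-8661242, minus strand) encodes ephrin-B2, the arterial ligand of EphB4. It was at 55.3, 48.5 and 29.8 CPM in CNTR and at 44.4, 47.9, 52.2 and 41.1 CPM in PAMH F3. CNTR replicate 3 was the lowest and CNTR replicate 1 the highest of the 7 libraries, so that the PAMH F3 libraries lay inside the CNTR range. The log2 fold change was 0.04 (standard error 0.07), and it was 0.29 without CNTR replicate 1 and -0.11 without CNTR replicate 3. Summed markers of arterial endothelium also had their lowest CPM in CNTR replicate 3, at 53.9, and lay between 66.0 and 98.3 elsewhere, with 0 of 6 markers at 0 in all libraries. Among these markers, Sox17 (12.4 CPM) and Hey1 (11.3 CPM) were lowest in CNTR replicate 3, whereas Gja4, Gja5, Dll4 and Bmx were not. The part of arterial cells in the Efnb2 level was not tested. Efnb3 (ENSMUSG00000003934, chr11:69554092-69560205, minus strand), which encodes ephrin-B3, spanned 10.1 to 13.5 CPM in CNTR and 9.58 to 11.8 CPM in PAMH F3, and its log2 fold change came to -0.04 (standard error 0.14).

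The summed ligands were lower in PAMH F3 with Efnb1 in the sum and not without it. Per kilobase, all 8 ephrins together came to 56.2 ± 5.36 CPM (SD, n = 3) for CNTR and 48.1 ± 2.196 CPM (SD, n = 4) for PAMH F3. The 7 ephrins without Efnb1 were at 34.3 ± 1.32 and 35.2 ± 2.24 CPM per kilobase. The share of Efnb1 in the class B ligands was 68.3% ± 7.52 (SD, n = 3) in CNTR and 56.0% ± 5.02 (SD, n = 4) in PAMH F3. In CNTR replicate 1 this share was 60.0%, below the 62.4% of PAMH F3 replicate 1, so that the groups overlapped in the share but not in the level. The 14 receptors together were at 41.8 ± 1.28 CPM per kilobase (SD, n = 3) in CNTR and 40.2 ± 1.58 (SD, n = 4) in PAMH F3.

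Of the class A ligands, Efna5 was higher in PAMH F3 and Efna1 was not. Efna5 (ENSMUSG00000048915, chr17:62604184-62881317, minus strand), the gene of ephrin-A5, was at 17.7, 13.7 and 18.4 CPM in CNTR and at 21.0, 21.1, 23.9 and 21.2 CPM in PAMH F3. Each PAMH F3 library was above each CNTR library, and 3 of the PAMH F3 libraries were nearly equal. CNTR averaged 16.6 ± 2.58 CPM (SD, n = 3) and PAMH F3 21.8 ± 1.39 CPM (SD, n = 4), a ratio of 1.31, and the log2 fold change was 0.36 (standard error 0.12). It stayed between 0.26 and 0.48 over the 18 alternative settings. Efna1 (ENSMUSG00000027954, chr3:89271733-89281142, minus strand), the gene of ephrin-A1, spanned 19.2 to 22.5 CPM in CNTR and 18.01 to 23.0 CPM in PAMH F3, giving a log2 fold change of -0.02 (standard error 0.13).

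**Figure D2:**
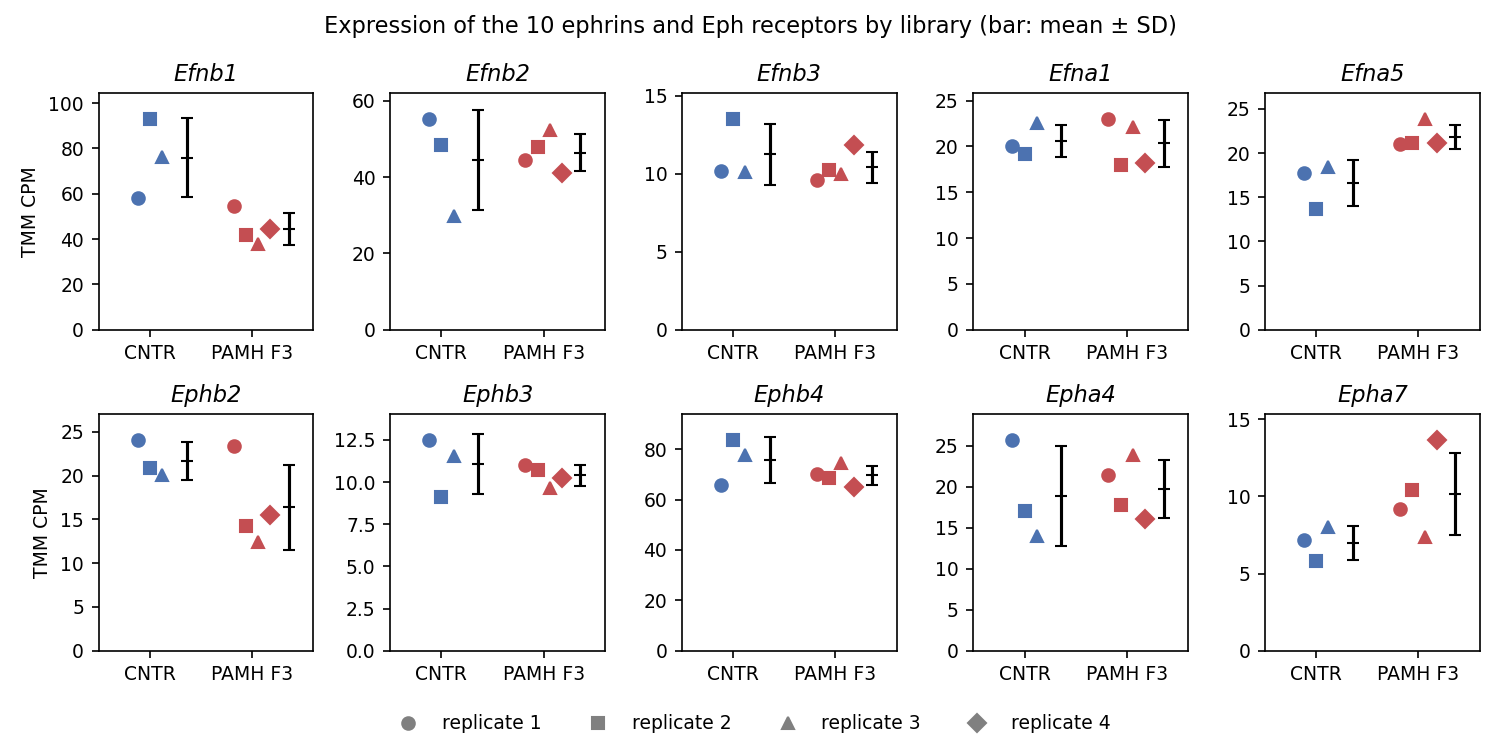
CPM of the 10 members by library (blue, CNTR; red, PAMH F3; marker shape gives the replicate number), with the group mean ± SD as a black bar and each vertical axis starting at 0. Only in the panels of Efnb1 and Efna5 are the groups separate, and the PAMH F3 libraries of Ephb2 split into 1 at 23.4 CPM and 3 from 12.4 to 15.5 CPM.

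Among the class B receptors, Ephb2 was lower in 3 of the 4 PAMH F3 libraries. Ephb2 (ENSMUSG00000028664, chr4:136647539-136835988, minus strand) encodes a receptor known from axon guidance and synapses. Its level was 24.1, 20.8 and 20.1 CPM in CNTR and 23.4, 14.2, 12.4 and 15.5 CPM in PAMH F3. PAMH F3 replicate 1 lay within the CNTR range and the other PAMH F3 libraries below it. Ephb2 averaged 21.7 ± 2.12 CPM (SD, n = 3) in CNTR libraries and 16.4 ± 4.87 CPM (SD, n = 4) in those of PAMH F3. On the log2 scale the fold change was -0.52 (standard error 0.21), and it came to -0.40 in the fit with no surrogate variables and to -0.68 when PAMH F3 replicate 1 was left out. Summed endothelial markers were split in the same way. CNTR libraries were at 334 to 378 CPM and PAMH F3 replicate 1 at 382 CPM. The remaining PAMH F3 mice were at 268 to 312 CPM. Of the 8 markers, 0 were at 0 in all libraries, and Pecam1, Cdh5 and Tie1 alone showed the split. At an unadjusted p under 0.05 in edgeR's test, 3 of the 8 were lower (Pecam1, Emcn and Cldn5), against 3.74% of all genes. The split was not particular to endothelium. Summed leukocyte markers ran from 363 to 390 CPM in CNTR and reached 474 CPM in PAMH F3 replicate 1. PAMH F3 replicates 2, 3 and 4 had leukocyte sums of 321, 253 and 331 CPM. Of the 7 leukocyte markers, 1 was lower at an unadjusted p under 0.05 in edgeR's test, against 3.74% of all genes. Lyz2 made up most of their sum (289 of a CNTR mean of 381 CPM). Summed luteal markers, of which Hsd3b1 made up most (4802 of a CNTR mean of 7474 CPM), did not show this split. They were at 6518 to 8490 CPM in CNTR and at 8098, 6209, 6181 and 8309 CPM in PAMH F3. In this sum, PAMH F3 replicate 4 was as high as replicate 1. Of the 6 luteal markers, Ptgfr alone showed the split, at 577, 516 and 883 CPM in CNTR and 593, 302, 227 and 309 CPM in PAMH F3. The parts of endothelial cells, leukocytes and luteal cells in the Ephb2 level were not tested.

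Ephb4 (ENSMUSG00000029710, chr5:137350109-137378669, plus strand), the gene of the venous receptor, was the most abundant receptor of the family. It was at 65.6, 83.7 and 77.7 CPM in CNTR and at 70.2, 68.8, 74.4 and 65.2 CPM in PAMH F3. The groups overlapped, and the log2 fold change was -0.04 (standard error 0.06), or -0.20 without CNTR replicate 1. Ephb4 shares exonic bases with Zan on the opposite strand, which had at most 42 counts in a library, against at least 2079 for Ephb4. Summed venous markers ran from 195 to 218 CPM in CNTR and from 179 to 215 CPM in PAMH F3, with 0 of 4 markers at 0 in all libraries. Ephb3 (ENSMUSG00000005958, chr16:21204755-21223305, plus strand), an EphB receptor known from epithelia, spanned 9.09 to 12.5 CPM in CNTR and 9.62 to 11.02 CPM in PAMH F3, giving a log2 fold change of -0.16 (standard error 0.11) that turned to 0.03 when CNTR replicate 1 was left out.

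For the class A receptors, Epha7 had a higher mean in PAMH F3 and Epha4 did not separate. Epha7 (ENSMUSG00000028289, chr4:28813131-28967499, plus strand) encodes a receptor known from the developing brain. It was at 7.17, 5.82 and 8.02 CPM in CNTR and at 9.18, 10.4, 7.34 and 13.7 CPM in PAMH F3. PAMH F3 replicate 3 lay within the CNTR range and the other PAMH F3 libraries above it. CNTR averaged 7.003 ± 1.11 CPM (SD, n = 3) and PAMH F3 10.1 ± 2.66 CPM (SD, n = 4), and the log2 fold change was 0.47 (standard error 0.16). Epha4 (ENSMUSG00000026235, chr1:77367185-77515088, minus strand), whose product binds ephrins of both classes, was at 25.7, 17.0 and 13.96 CPM in CNTR and at 21.4, 17.7, 23.8 and 16.0 CPM in PAMH F3. The values gave a log2 fold change of -0.03 (standard error 0.11). The sign was the opposite in 7 of the 18 alternative settings, with 0.37 as the highest value when CNTR replicate 1 was left out. CNTR replicate 1 and PAMH F3 replicate 3 held the highest values of Epha4 and of Efnb2 and also of the summed oviduct markers (5586 and 6627 CPM), with 0 of 7 markers at 0 in all libraries. Most of that sum was Ovgp1 (5074 and 6172 CPM), whereas Foxj1 was highest in CNTR replicate 2 (142 CPM) and Sec14l3 was at 76.4 CPM in PAMH F3 replicate 3. CNTR replicate 1 and PAMH F3 replicate 3 were also highest in the summed adipocyte markers (769 and 556 CPM, elsewhere at most 424 CPM). They were likewise highest in the summed markers of surface epithelium (890 and 883 CPM, elsewhere at most 791 CPM). In PAMH F3 replicate 3 this held for Krt8, Krt18 and Krt19. There, Upk3b (104 CPM), Upk1b (49.7 CPM), Lrrn4 (15.1 CPM) and Msln (78.4 CPM) were below PAMH F3 replicates 1 and 2. Upk3b, Upk1b, Lrrn4 and Msln were highest in CNTR replicate 1. The parts of oviduct, fat and surface epithelium in Epha4 and Efnb2 were not tested.

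**Figure D3:**
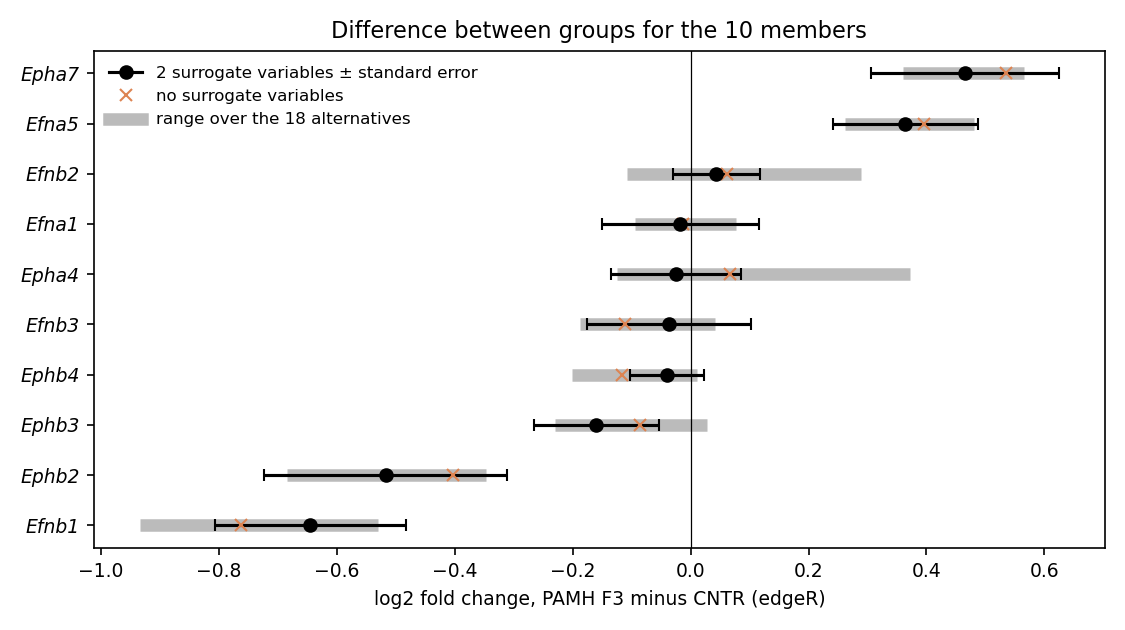
Log2 fold change of each member (PAMH F3 minus CNTR) from edgeR with 2 surrogate variables (black point, ± standard error), without surrogate variables (cross) and over the 18 alternative settings (gray band, lowest to highest). The bands of Efnb1 and Ephb2 stay below 0 and those of Efna5 and Epha7 above 0, and the other 6 cross 0.

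All 10 members passed the filter on low counts. Over all 18779 genes tested, edgeR's quasi-likelihood test called 0% at an adjusted p of at most 0.05, and 0 of the 10 members. An unadjusted p under 0.05 was found for 7.63% of all genes and for 4 members, namely Efnb1 and Ephb2 (lower) and Efna5 and Epha7 (higher). With these surrogate variables, the Wald test of DESeq2 called 0.583% of the genes it gave an adjusted p, and 1 member, Efnb1. The groups did not overlap for 4.25% of all genes and for 2 members, with Efnb1 below (2.4% of all genes) and Efna5 above (1.85%). Since the members were chosen from this contrast, nothing is read from these counts. The log2 fold change was below 0 in 7 of the 10 members and in 47.8% of all genes, and its median was -0.03 over the members and 0.01 over all genes tested.

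The other 12 ephrins and Eph receptors did not separate between the groups. They are Efna2, Efna3, Efna4, Epha1, Epha2, Epha3, Epha5, Epha6, Epha8, Epha10, Ephb1 and Ephb6, of which all but Epha6 (at most 8 counts in a library) passed the filter. In edgeR's test, 0 of the 11 had an adjusted p of at most 0.05, the smallest being 0.699. An unadjusted p under 0.05 was found for 0 of the 11, against 7.63% of all genes. The DESeq2 fit also called 0 of the 11. Without surrogate variables, 1 of the 11 (Epha8) had an unadjusted p under 0.05 in edgeR's test, against 3.89% of all genes. With surrogate variables, the log2 fold changes of the 11 ran from -0.86 (standard error 0.43) for Epha8 to 0.60 (standard error 0.33) for Epha5. Their median was 0.00. Ephb6, whose product lacks kinase activity, was the most abundant of them, with a CNTR mean of 47.4 ± 7.09 CPM (SD, n = 3) and a PAMH F3 mean of 45.8 ± 3.25 CPM (SD, n = 4). Efna4 was at 10.3 ± 1.16 and 10.5 ± 0.86 CPM and Epha1 at 11.01 ± 2.70 and 11.7 ± 0.82 CPM. For Epha8, which lies on chromosome 4 close to Ephb2, the libraries had between 11 and 47 counts, and the CNTR and PAMH F3 values overlapped (two-sided p = 0.114, exact permutation test). With 35 divisions of the libraries into 3 and 4, this test cannot give a p below 0.0286.

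Partner genes were listed by their role, and none passed the adjusted threshold in edgeR's test or in DESeq2's. On the receptor side, 32 genes of forward signaling were tested, of which 2 were higher and 1 lower at an unadjusted p under 0.05, against 3.89% and 3.74% of all genes, with a median log2 fold change of -0.01. Without surrogate variables, 0 of the 32 had such a p. Kalrn encodes kalirin, a synaptic signaling protein that acts downstream of EphB2 in neurons. It was at 57.2, 44.1 and 46.5 CPM in CNTR and 53.1, 31.1, 28.6 and 34.5 CPM in PAMH F3, so that PAMH F3 replicate 1 again lay with CNTR. The fold change of Kalrn was -0.56 on the log2 scale (standard error 0.19), with an edgeR adjusted p of 0.598. Without PAMH F3 replicate 1 it was -0.72, with an edgeR adjusted p of 0.0411, the only partner call in any setting. Itsn1, an exchange factor for Cdc42 that binds EphB2, differed by 0.25 on the log2 scale (standard error 0.07, edgeR adjusted p = 0.539), and Inppl1, the lipid phosphatase SHIP2 that binds EphA2, by 0.16 (standard error 0.06, edgeR adjusted p = 0.633).

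On the ligand side, 20 genes of reverse signaling were tested, with 3 higher (3.89% of all genes) and 0 lower (3.74% of all genes) at an unadjusted p under 0.05 and a median log2 fold change of 0.01. Without surrogate variables, 1 of the 20 had such a p. The 3 genes were Pick1, a PDZ protein that binds ephrin-B tails, Dab1, the adaptor of reelin signaling, and Rgs3, a regulator of G protein signaling that binds ephrin-B. Pick1 averaged 23.2 ± 1.67 CPM (SD, n = 3) for CNTR and 27.6 ± 2.68 CPM (SD, n = 4) for PAMH F3, a log2 fold change of 0.31 (standard error 0.09, edgeR adjusted p = 0.549). The groups overlapped in all of these (exact permutation tests, two-sided p from 0.0857 to 0.114). In the list of proteases and phosphatases, 20 genes were tested, with 1 higher and 0 lower at an unadjusted p under 0.05, or 0 of the 20 without surrogate variables, and a median log2 fold change of -0.03. This was Psen2, a subunit of the gamma-secretase that cuts ephrin-B and Eph stubs, with a CNTR mean of 69.5 ± 15.1 CPM (SD, n = 3) and a PAMH F3 mean of 70.3 ± 4.04 CPM (SD, n = 4). Its log2 fold change was 0.16 (edgeR adjusted p = 0.604) with surrogate variables and 0.02 without them. Next by p were Ptpn1, a tyrosine phosphatase of Eph receptors (log2 fold change -0.17, edgeR adjusted p = 0.715), and Aph1a, another gamma-secretase subunit (0.16, edgeR adjusted p = 0.736).

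Genes whose profile over the 7 libraries was closest to Efnb1 and Ephb2 were found among the 18778 other genes tested, by the root-mean-square distance between log2 CPM profiles centered on their own means. The nearest to Efnb1 were Bsn (a presynaptic scaffold, distance 0.07), Glis1 (a zinc-finger transcription factor, 0.09), Cox16 (a cytochrome c oxidase assembly factor, 0.11), Rpp25 (a subunit of RNase P, 0.13) and Adra1a (an adrenergic receptor, 0.13), against a median distance of 0.48 over all genes. Of these, Glis1, Cox16 and Adra1a were below 2.5 CPM in each library. The nearest to Ephb2 was Kalrn (distance 0.05), and Bmf (a pro-apoptotic BCL2-family gene, 0.07), Sorbs2 (a cytoskeletal adaptor, 0.09) and Fkbp5 (a co-chaperone of the glucocorticoid receptor, 0.09) were also among the nearest 5, against a median of 0.40. In these 4 genes, as in Ephb2 itself, PAMH F3 replicate 1 was above the other PAMH F3 libraries, which follows from picking them by the Ephb2 profile. Bmf, for instance, reached 57.1 CPM in PAMH F3 replicate 1 and 31.6 to 36.9 CPM in the remaining PAMH F3 mice. The profiles run over both groups, so that the difference between CNTR and PAMH F3 enters the distances, which are a description.

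**Figure D4:**
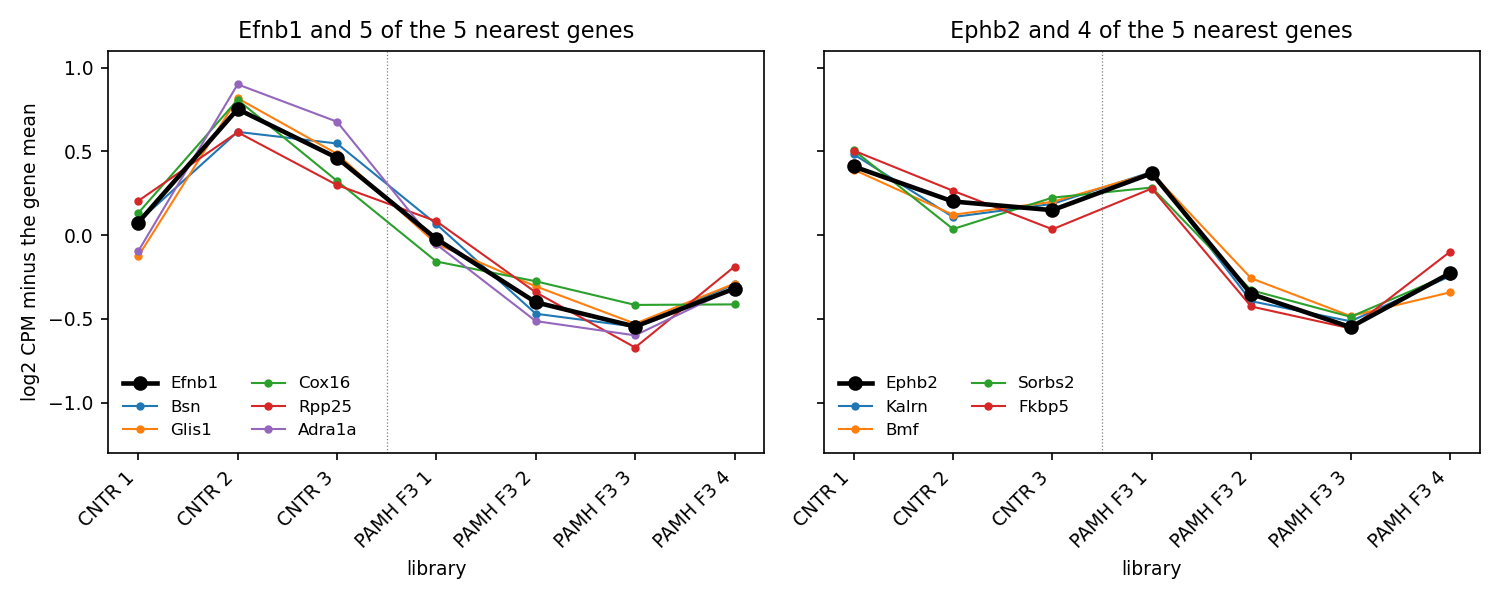
Profiles over the 7 libraries of Efnb1 (left) and Ephb2 (right), in black, with the 5 nearest genes of Efnb1 and 4 of the 5 nearest of Ephb2 in color, as log2 CPM (prior count 2) minus the gene's mean; lines join libraries of a gene only to guide the eye, and the dotted line parts CNTR from PAMH F3. Efnb1 peaks in CNTR replicate 2, whereas Ephb2 is high in the CNTR libraries and in PAMH F3 replicate 1.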

How the data were processed

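The authors sequenced stranded poly(A) libraries as single 50-base reads, mapped them to mm10 with STAR 2.5.3a and counted uniquely aligned reads with HTSeq-count 0.6.1p1 in union mode (versions per the submitters' processing notes, which also name bcl2fastq 2.17.1.14). The deposited values are raw read counts per gene, without normalization. The Ensembl release and the strand setting of the counting are not given in the sources used here. Of the 55487 identifiers, 55394 were matched to GENCODE M21. Lines that name no gene were left out.

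The 18779 genes kept by filterByExpr (minimum count 10) were compared with edgeR 4.0.16 (quasi-likelihood F test, TMM) in R 4.3.3 with 2 surrogate variables from svaseq (sva 3.50.0), which left 3 residual degrees of freedom, with Benjamini-Hochberg adjusted p values (threshold 0.05). DESeq2 1.42.0 was an alternative. The study used DESeq2 with sva and IHW, and IHW was not used here. CPM were scaled by TMM over all gene rows, and intervals given as SD cover the spread between mice.

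The members, the gene lists and the alternatives were chosen with earlier results of these data known. The genes named are the 10 members, the 12 other family genes, partners past the threshold or with the 3 smallest p of their list, and the 5 genes closest in profile to Efnb1 and to Ephb2, of which 1 is not reported here. Zan and the single marker genes given were added after their values were seen. The replicate numbers of the titles do not pair the mice. Results of MeDIP-seq and qRT-PCR were not analysed here.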

Additional observations from a re-analysis of the deposited data

Results flagged for a closer look

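In Efna5, PAMH F3 replicate 3 was at 23.9 CPM, far from the other PAMH F3 libraries, which lay between 21.0 and 21.2 CPM. Its gap to the nearest of them took 0.942 of the group's range, above Dixon's 95% critical value of 0.829 for 4 samples. Of the 21 family genes examined in this way, Efna5 alone passed, and chance flags about 1 in 20 groups. Without this library the log2 fold change of Efna5 was 0.26.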

How the results depend on the processing

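The log2 fold changes of Efnb1, Ephb2, Efna5 and Epha7 kept their sign in all 18 alternatives, and ranged from -0.93 to -0.53, from -0.68 to -0.35, from 0.26 to 0.48 and from 0.36 to 0.57. The sign changed in 1 alternative for Ephb3, 2 each for Efnb2 and Ephb4, 3 for Efnb3, 5 for Efna1 and 7 for Epha4. Leaving out CNTR replicate 1 moved Efnb1 (-0.93), Ephb3 (0.03), Ephb4 (-0.20) and Epha4 (0.37) by more than 1 SD. The count of all genes called, 0 in edgeR's test, was 101 with DESeq2 and the same surrogate variables, 6 with DESeq2 without them and 8 without a filter on low counts, and from 0 to 37 with 1 library left out (37 without CNTR replicate 1, 31 without PAMH F3 replicate 1, 0 without each of the others). The cause was not tested. The count of members called, an alternative added after seeing the data, was 1 (Efnb1) with DESeq2 and the same surrogate variables and 0 otherwise. The count of members without overlap, also added, was between 2 and 3 with 1 library left out. Calls among the other 12 family genes were 0 throughout, and those among forward partners ran from 0 to 1 with 1 library left out (Kalrn, without PAMH F3 replicate 1).

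With the replicate number as a block, which could be fitted only without surrogate variables, 0 of all genes were called, and Efnb1 was at -0.75, Ephb2 at -0.42, Efna5 at 0.42 and Epha7 at 0.36. Deviations of same-numbered libraries from their group means correlated at 0.0957, 0.0965 and -0.248 across genes, so the numbers were not taken to pair the mice, and the block changed no call. With a prior count of 0.5, 4 of the 5 genes nearest to Efnb1 and all 5 nearest to Ephb2 stayed among the nearest 5. Epha6 was too shallow to test.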
